A study of Arabidopsis thaliana with 6 samples.

Results

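The vacuolar processing enzymes (VPEs) of Arabidopsis thaliana are encoded by ALPHA-VPE (AT2G25940), BETA-VPE (AT1G62710), GAMMA-VPE (AT4G32940) and DELTA-VPE (AT3G20210), and their transcripts were followed through 6 libraries of amplified RNA from young embryos and the seed coat. They were chosen by locus name and are all 4 VPE loci among the 32140 loci listed in every library, each with 1 listed transcript. Because they were chosen with their levels in these libraries known, their levels and differences are given as a description with no test, and the tests below concern other genes.

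VPEs are cysteine proteases of the C13 (legumain) family that cut after asparagine, and sometimes aspartate, residues in the vacuole. They are made as inactive precursors that cut themselves into the mature form in the acid of the vacuole, where they in turn mature other vacuolar proteins. BETA-VPE is known for processing storage proteins in the maturing seed, ALPHA-VPE and GAMMA-VPE for roles in vegetative organs, in senescence and in defence-related cell death, and DELTA-VPE for cell death in the inner integument layers of the young seed coat.

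Embryos were dissected from crosses of a Landsberg erecta (Ler) mother with a Columbia_0 (Col0) father, and the labels say that part of the suspensor came with them. The groups were 2 libraries of wild-type embryos at the 2-4 cell stage (WT 7 and WT 11), 2 of 2-4 cell embryos with a kyp-2 mother (kyp 11 and kyp 12), 1 of wild-type globular embryos and 1 of Ler wild-type seed coat from seeds that held 2-4 cell embryos. kyp-2 is a mutant allele of KRYPTONITE (KYP), which encodes a histone H3 lysine methyltransferase; the allele entered through the mother, and the father was Col0. The labels of kyp 11 carry both a kyp-2 and a wild-type entry for the maternal genotype, and they do not say whether the libraries within a group are from different plants, so p-values measure the spread between these libraries, which may be technical. The globular and seed coat libraries have no replicate and borrow the spread of the 2-4 cell pairs.

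Reads assigned to loci ranged from 1448502 (kyp 11) to 4107227 (kyp 12) per library. Levels are read counts per 1000000 reads of the library, scaled by the trimmed mean of M values (CPM below). KYP itself was read in all 6 libraries, at 60.0 ± 3.96 CPM in WT and 42.4 ± 2.64 CPM in kyp (SD, n = 2 each), and the labels do not say whether kyp-2 removes the transcript, so this level does not check the genotype. Markers did not separate embryo from seed coat cleanly. All 12 seed coat markers had reads in all 6 libraries, and their summed level was 6106 CPM in the seed coat library against 6354 to 10064.5 CPM in the embryo libraries. BAN, which makes proanthocyanidin precursors in the inner seed coat and was named after its values were seen, had 112 to 231 CPM in the embryo libraries and 326 CPM in the seed coat. CYP78A5, in the same list, went the other way and fell in the seed coat (log2 fold change -4.78, SE 0.57; edgeR adjusted p = 0.000518) and in globular embryos (log2 fold change -2.50, edgeR adjusted p = 0.0177). Over all genes tested, edgeR called 0.158% higher and 0.627% lower in the seed coat, and 0.384% and 0.774% in globular embryos. In the seed coat against WT, 7 of the 12 seed coat markers had positive and 5 negative fold changes (median log2 fold change 0.10). The 10 embryo markers had 1 positive and 9 negative there (median -1.84, with a gene without reads set at 3 reads, against 0.00 over all genes tested). Among them, the zygotic regulator WOX2 had 2 reads in the seed coat library against 240 in the WT libraries. Its WT level was 45.3 times as high (95% interval 12.4 to 376, counting error only, edgeR adjusted p = 0.0192). Of the embryo markers, 1 was called higher in globular embryos with DESeq2 or with the name prefix (MC, in WT 11 and kyp 12) as a block. With no low-count filter 1 was also called higher, as were 178 of all 23132 genes tested.

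The coding sequences of the 4 genes are shown at their most alike stretch of 50 bases, the read length seen in the files, because it shows how far a read of one member can be told from another. They come from RefSeq (assembly TAIR10.1, Col), by locus name, on the coding strand; no source used here names the build behind the files. Capitals mark bases unlike DELTA-VPE, and 36 of the 50 columns are alike in all 4.
ALPHA-VPE: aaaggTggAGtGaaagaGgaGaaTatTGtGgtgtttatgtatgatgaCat
BETA-VPE: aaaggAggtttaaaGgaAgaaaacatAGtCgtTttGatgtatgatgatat
GAMMA-VPE: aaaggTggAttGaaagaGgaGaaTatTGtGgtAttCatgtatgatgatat
DELTA-VPE: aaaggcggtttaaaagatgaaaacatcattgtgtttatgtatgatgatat
At this stretch ALPHA-VPE and GAMMA-VPE differed from DELTA-VPE at 11 bases each and BETA-VPE at 8. ALPHA-VPE (chromosome 2, 8 exons, coding length 1437 bases) and GAMMA-VPE (chromosome 4, 9 exons, 1485 bases) were the closest pair, with 82.1% identical coding bases, whereas the other pairs, with BETA-VPE (chromosome 1, 9 exons, 1461 bases) or DELTA-VPE (chromosome 3, 8 exons, 1401 bases), had 56.4% to 61.7%.

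Only the pair of ALPHA-VPE and GAMMA-VPE had stretches of 50 bases within 5 mismatches of each other, at 212 of the 1747 positions (12.1%) in the RefSeq transcript of ALPHA-VPE. The closest holds an exact run of 37 bases and is shown with its 2 mismatches in capitals.
ALPHA-VPE: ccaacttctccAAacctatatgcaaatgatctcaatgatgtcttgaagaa
GAMMA-VPE: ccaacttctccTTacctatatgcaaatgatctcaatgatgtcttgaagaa
The file names call the reads unique, and no source used here gives the mismatches that the authors allowed, so a few reads could have passed between these members. The strand of the reads is also not stated. RefSeq exons of DELTA-VPE overlap an antisense long non-coding RNA (AT3G03955) over 220 bases, and those of ALPHA-VPE and GAMMA-VPE overlap an antisense protein-coding gene over 24 and 20 bases. Reads there cannot be assigned to a strand. The listed transcripts were shorter than the RefSeq ones (1640 against 1796 bases for ALPHA-VPE, 1879 against 2134 for GAMMA-VPE, 1681 against 1754 for DELTA-VPE). Whether the overlaps lie inside the listed transcripts was not tested.

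DELTA-VPE, the member known from the inner integument, was the most read VPE in all 6 libraries and stood highest in the globular library. It had 225 reads in WT 7, 235 in WT 11, 392 in kyp 11, 458 in kyp 12, 1454 in the globular and 302 in the seed coat library. The scaled levels were 96.0 and 65.9 CPM in WT, 259 and 111 CPM in kyp, 863 CPM in the globular library and 135 CPM in the seed coat. The globular library stood above all others, and the seed coat lay between kyp 12 and kyp 11. Both kyp libraries lay above both WT libraries, an order that held for 17% of the 15996 genes tested. In bulk RNA such as this, fewer cells of a type and less RNA per cell cannot be told apart.

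The globular level of DELTA-VPE was 10.7 times the WT mean (log2 ratio 3.42), 4.66 times the kyp mean and 6.38 times the seed coat level. Its counting interval of 820 to 909 CPM lay far above the seed coat's 120.5 to 151.5 CPM, but neither stage nor tissue has a second library, so only counting error is covered. By rank, DELTA-VPE was locus 129 from the top of the 17835 loci with reads in the globular library, against 1254 in the seed coat, 574 and 1905 in kyp 11 and kyp 12, and 2376 and 3347 in WT 7 and WT 11. Reads covered 98.1% of the listed DELTA-VPE transcript in the globular library and 77.0% to 89.9% in the others. This breadth does not show how evenly the reads lay, and depth along the transcript was not examined.

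Among 2-4 cell embryos, the mean DELTA-VPE level was 80.9 ± 21.3 CPM in WT and 185 ± 105 CPM in kyp (SD, n = 2 each), 2.29 times as high in kyp. The log2 ratio of 1.19 was 0.46 without kyp 11 and 1.68 without kyp 12. The gap between the groups was narrower than the spread inside them: the lower kyp library was 1.16 times the higher WT library, whereas kyp 11 was 2.33 times kyp 12 and WT 7 was 1.46 times WT 11. WT 11 and kyp 12 share a name prefix (MC) that the other pair lacks. Within the prefixed pair kyp was 1.69 times WT, and within the other pair 2.70 times.

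**Figure D1:**
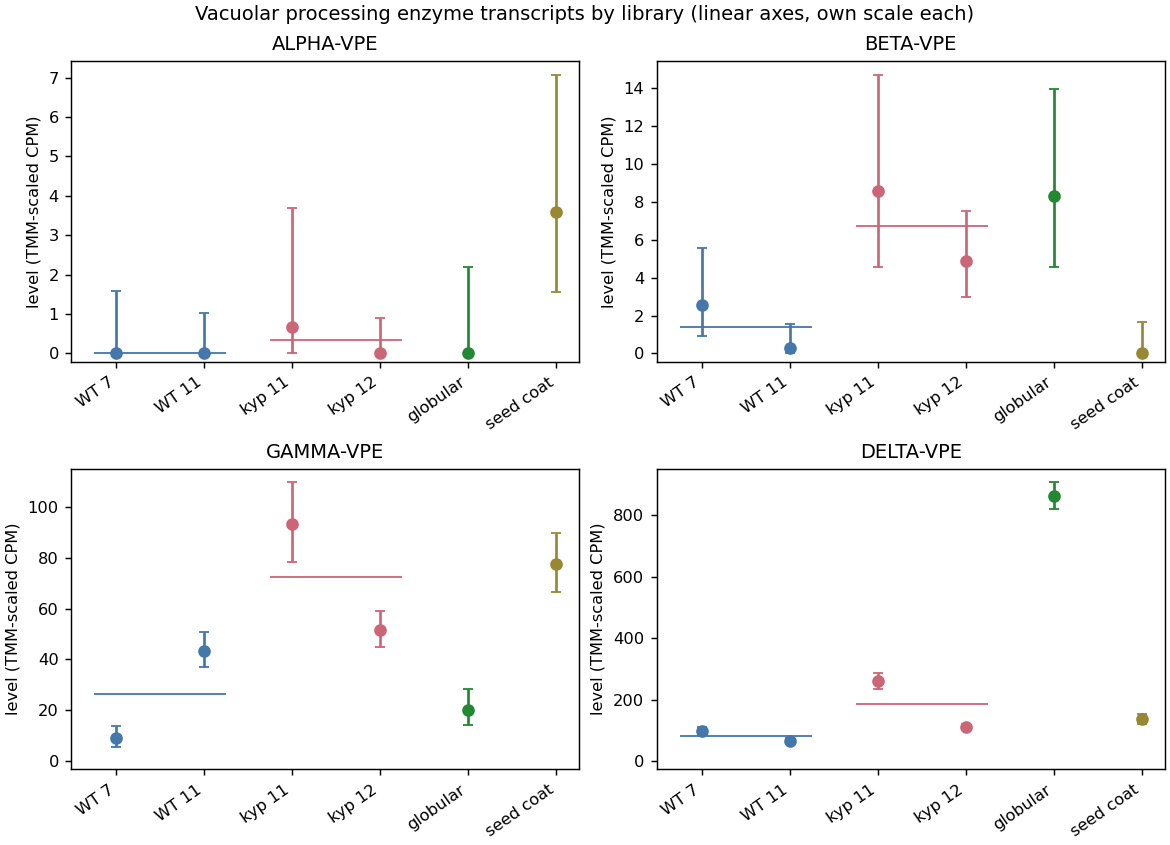
Level of each VPE by library (CPM scaled by the trimmed mean of M values, linear axes with a scale of their own), as points with 95% Poisson intervals that cover counting error only; short horizontal lines are the means of the WT and kyp pairs. DELTA-VPE peaks in the globular library at 863 CPM, GAMMA-VPE is highest in kyp 11 and the seed coat, BETA-VPE has no reads in the seed coat, and ALPHA-VPE is near 0 outside the seed coat.

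BETA-VPE, the storage-protein processing enzyme, was read in every embryo library and not in the seed coat. It had 6 reads in WT 7, 1 in WT 11, 13 in kyp 11, 20 in kyp 12, 14 in globular embryos and 0 in the seed coat. These reads corresponded to 2.56 and 0.280 CPM in WT, 8.60 and 4.86 CPM in kyp and 8.31 CPM in the globular library. The globular library lay between the kyp libraries, and both WT libraries were lower. With 0 reads the seed coat allowed up to 1.65 CPM (95% limit, counting error only), so it could not be ranked against WT 11, which had 1 read.

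Against the level that 3 reads would have given in the seed coat library, BETA-VPE was 6.18 times as high in the globular library and 5.0 times in kyp. These are no lower bounds, because the counting error of the higher levels is left out. The globular interval of 4.55 to 13.9 CPM lay above the seed coat limit of 1.65 CPM. WT was at 1.42 ± 1.61 CPM and kyp at 6.73 ± 2.64 CPM (SD, n = 2 each). Both kyp libraries lay above both WT libraries, an order that held for 17% of the 15996 genes tested. The counting interval of WT 7 (0.94 to 5.57 CPM) overlapped those of kyp 12 (from 2.97 CPM) and kyp 11 (from 4.58 CPM). The ratio of summed reads of kyp over WT was 4.95 (95% interval 2.15 to 13.3, counting error only). Within the prefixed pair it was 17.3 (interval 2.77 to 719, with 1 WT read), and within the other pair 3.36 (interval 1.19 to 10.8). The ratio of the globular library over WT by summed reads was 7.02 (interval 2.65 to 20.6). The log2 ratios of mean levels, 2.24 in kyp and 2.55 in the globular library, were 4.59 and 4.89 without WT 7 and 1.39 and 1.70 without WT 11. Both WT libraries were at 6 reads or fewer, and reads covered at most 26.9% of the transcript in any library, so these ratios rest on few molecules.

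The storage proteins that BETA-VPE is known to process were nearly unread at these stages. Of 9 cruciferin (12S globulin) and 2S albumin (SESA) genes, 6 to 9 had no read in a given library, and their summed level was at most 6.40 CPM, in WT 7. CRU2 accounted for 5.12 CPM of that, CRU3 did not pass 1.28 CPM in any library, and SESA2 was read only in kyp 12, at 2.43 CPM. None passed the low-count filter, so none was tested.

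GAMMA-VPE, the main vegetative VPE, ranged more between libraries of 1 group than between most groups. It had 21 reads in WT 7, 155 in WT 11, 141 in kyp 11, 212 in kyp 12, 34 in globular embryos and 173 in the seed coat. The levels were 8.96 and 43.4 CPM in WT, 93.2 and 51.5 CPM in kyp, 20.2 CPM in the globular library and 77.5 CPM in the seed coat. The seed coat lay between kyp 12 and kyp 11, and the globular library lay between the WT libraries.

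The GAMMA-VPE means were 26.2 ± 24.4 CPM in WT and 72.4 ± 29.5 CPM in kyp (SD, n = 2 each), a ratio of 2.76, with the lower kyp library 1.19 times the higher WT library and WT 11 at 4.85 times WT 7. The prefixed pair gave a kyp over WT ratio of 1.19 and the other pair 10.4, so the ratio was larger in the pair that holds WT 7. The log2 ratio of 1.47 was 0.74 without WT 7 and 3.01 without WT 11. The seed coat level was 2.96 times the WT mean (log2 ratio 1.57, but 0.84 without WT 7 and 3.11 without WT 11) and 1.07 times the kyp mean. The globular level was 0.771 times the WT mean (log2 ratio -0.38), a direction that reversed without WT 11 (log2 ratio 1.17), and 0.260 times the seed coat level. Reads covered 21.5% of the GAMMA-VPE transcript in WT 7 and 52.3% in the globular library, against 72.2% to 78.0% in the others.

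ALPHA-VPE, the close relative of GAMMA-VPE, was the least read member, with 9 reads in all. The seed coat library held 8 of them (3.59 CPM, 95% interval 1.55 to 7.06, counting error only), and kyp 11 held the other. WT 7, WT 11, kyp 12 and the globular library had 0 reads, which allows up to 0.729 to 1.78 CPM at 3 reads. Against the level that 3 reads per library would have given, the seed coat level was 3.38 times WT and 2.01 times the globular library. These are no lower bounds, because the counting error of the 8 reads is left out. The seed coat interval overlapped the 95% limits at 0 reads in WT 7 (1.57 CPM) and the globular library (2.19 CPM). It lay above those in WT 11 (1.03 CPM) and kyp 12 (0.896 CPM), and overlapped the interval of kyp 11, which reached 3.68 CPM at 1 read. The ratio of summed reads of the seed coat over kyp was 20.2 (interval 2.71 to 895).

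Per length of transcript, which allows levels of different genes to be compared, the summed VPE level was 63.4 and 62.5 CPM per kilobase in WT, 209 and 96.4 in kyp, 529 in globular embryos and 124 in the seed coat. DELTA-VPE made up 90.1% of that level in WT 7, 62.7% in WT 11, 73.7% in kyp 11, 68.6% in kyp 12, 97.1% in globular embryos and 65.0% in the seed coat. GAMMA-VPE supplied nearly all of the rest, from 2.03% in the globular library to 37.0% in WT 11. The level per length of DELTA-VPE was 47.8 times that of GAMMA-VPE in the globular library, 12.0 times in WT 7 and 1.69 to 3.11 times in the other 4, so the order of the members was the same throughout at the top and the distance between them was not. WT 7 and WT 11 had almost the same summed level with different make-ups. For 3 of the 4 members (not ALPHA-VPE) both kyp libraries lay above both WT libraries; the same order held for 17% of the 15996 genes tested, and nothing is read from the members' count because the choice used these levels.

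**Figure D2:**
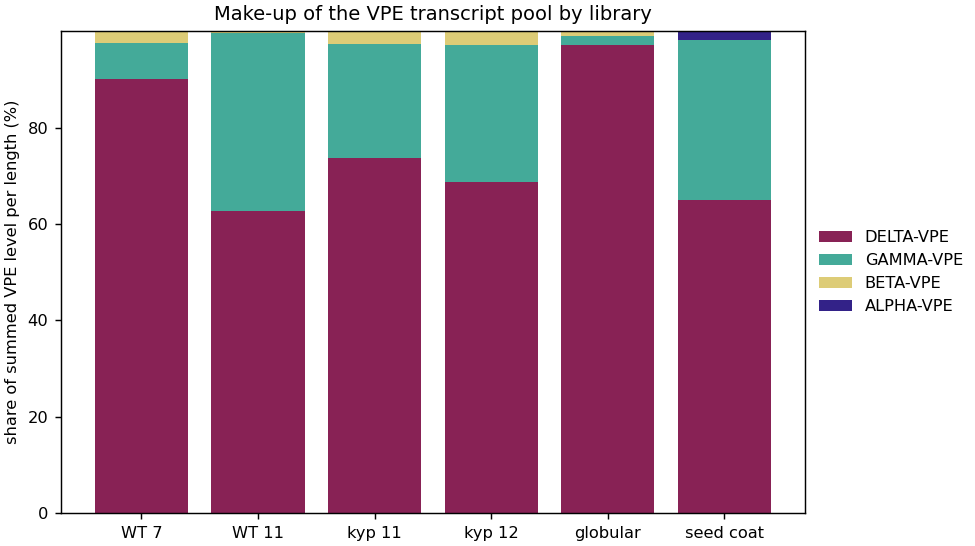
Share of each VPE in the summed VPE level per transcript length (percent, stacked bars from 0, 1 bar per library). DELTA-VPE is the largest share in all 6 libraries, at 97.1% in the globular library and 62.7% in WT 11, and GAMMA-VPE makes up most of the remainder.

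Markers of other cell types were set beside these levels by library. The summed embryo markers were 3905 CPM in the globular library against 1104 to 1998 CPM in the others, and most of that difference lay in 1 gene. PDF1, an epidermal gene named after its values were seen, had 2721 CPM there, and without it the sum was 1184 CPM against 686 to 1091 CPM. Of the 10 embryo markers, 5 had a positive and 5 a negative fold change in globular embryos (median log2 fold change 0.04). None was called by edgeR, and 3 had an unadjusted edgeR p under 0.05, as had 1993 of all 17706 genes tested. The summed seed coat markers were lower there than in any 2-4 cell library, but the order of the libraries turned on single genes, removed here after their values were seen. Without CYP78A5 the globular library was at 6070 CPM, above WT 11, kyp 11 and the seed coat at 4844, 5634 and 6047 CPM. Without TT4 as well, a chalcone synthase with 4137 CPM in the globular library, it was lowest, at 1933 CPM against 2492 to 4183 CPM. The pigment oxidase TT10, also named after its values were seen, had 213 CPM in the globular library and 62.2 to 133 CPM elsewhere. The part of seed coat RNA in the embryo levels of DELTA-VPE was not tested.

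The 8 markers of developmental cell death include CEP1, AT4G04460 and MC9, which also stand in the protease lists below. Their summed level was lowest in the globular library and WT 7 and highest in kyp 11, as GAMMA-VPE was. The sum was 25.2 and 92.8 CPM in WT, 157 and 82.4 CPM in kyp, 23.8 CPM in the globular library and 66.8 CPM in the seed coat. CEP1 alone was 85.3 CPM of the kyp 11 sum. Other members differed in order: scpl48 was highest in the seed coat (21.1 CPM) and AT4G18425 in WT 11 (12.1 CPM). BFN1, a nuclease of dying cells, had 10.7 and 8.41 CPM in WT, 29.8 and 28.2 CPM in kyp, 0.594 CPM in the globular library and 4.93 CPM in the seed coat. CEP1, a papain-like protease of dying cells, had 3.84 and 44.3 CPM in WT, 85.3 and 36.4 CPM in kyp, 11.9 CPM in the globular library and 24.2 CPM in the seed coat. Over all genes tested, edgeR called 0.0313% in kyp, 1.16% in globular embryos and 0.785% in the seed coat, in either direction. None of the list was called by edgeR or by DESeq2 in any of the 3 comparisons with WT. An unadjusted edgeR p under 0.05 was found for 1 of 4 tested in kyp and 1 of 8 in the globular library. In the seed coat it was found for 0 of 8. Over all genes it was found for 815 of 15996 tested in kyp. It was found for 1993 of 17706 in globular embryos and for 1686 of 17706 in the seed coat. The unadjusted counts of the other lists stand against the same numbers. Without WT 11, CEP1 was called higher in kyp (log2 fold change 3.96, edgeR adjusted p = 0.0174).

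**Figure D3:**
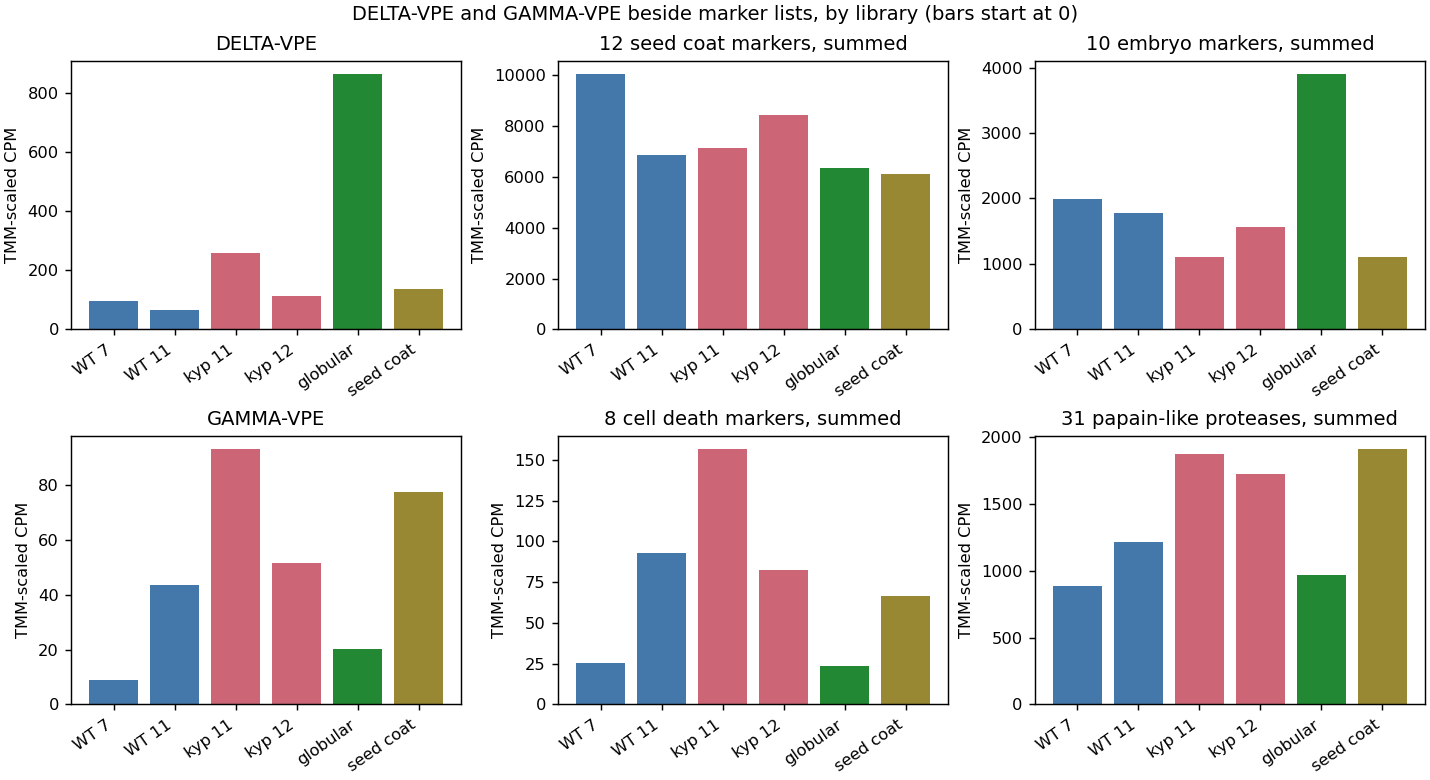
Levels of DELTA-VPE and GAMMA-VPE beside the summed levels of marker lists (CPM scaled by the trimmed mean of M values, bars from 0, 1 bar per library). The globular library is highest for DELTA-VPE and for the summed embryo markers, at 3905 CPM, of which PDF1 alone is 2721 CPM. It is among the lowest for GAMMA-VPE and the summed cell death markers.

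Papain-like cysteine proteases, which share the vacuole and its neighbouring compartments with the VPEs, numbered 31 loci. In kyp against WT, 20 were tested, of which 18 had a positive and 2 a negative fold change, with a median of 0.34 on the log2 scale against -0.00 over all genes tested. The median was 0.71 without WT 11. A single member was called higher, AT3G43960. In this comparison 0.0188% of the 15996 genes tested were called higher and 0.0125% lower, or 0.0313% in either direction. AT3G43960 had 14.5 and 29.7 CPM in WT, 317 and 537 CPM in kyp, 0.594 CPM in the globular library and 28.7 CPM in the seed coat. Both kyp libraries were far above every other library (log2 fold change 4.26, SE 0.49; edgeR adjusted p = 0.0104). A second member was called without WT 11.

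In the globular library, 22 papain-like proteases were tested and AT3G43960 was again the member called, here lower, where 0.384% of all genes tested were called higher and 0.774% lower. It had 1 read against 140 in WT, a WT level 39.9 times as high (95% interval 7.04 to 1586, counting error only; edgeR adjusted p = 0.0161). Of the 22, 7 fold changes were positive and 15 negative. With no low-count filter 2 were called lower, as were 384 of all 23132 genes tested. With the prefix as a block 2 were called lower, as were 245 of all 17706 genes tested. In the seed coat 0.158% of the genes tested were called higher and 0.627% lower (0.785% together). None of 22 papain-like proteases was called there by edgeR or DESeq2, with 14 positive and 8 negative fold changes. An unadjusted edgeR p under 0.05 was found for 4 of them, and for 1686 of all 17706 genes tested. With no low-count filter 1 was called higher, as were 145 of all 23132 genes tested. The summed list was 889 and 1214 CPM in WT, 1875 and 1729 CPM in kyp, 972 CPM in the globular library and 1914 CPM in the seed coat. Without AT3G43960 it was 874 and 1184 CPM in WT and 1557 and 1193 CPM in kyp, so kyp 12 then stood level with WT 11.

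APA1, a vacuolar aspartic protease, had 432 to 629 CPM in the 6 libraries. Of the 3 aspartic proteases listed, none was called in any comparison by edgeR or DESeq2 (1 had an unadjusted edgeR p under 0.05, in the seed coat). The other two were lower: AT1G62290 had 14.1 and 7.01 CPM in WT and 0 reads in the seed coat, and AT4G04460, which overlaps an antisense gene and is uncertain, had at most 10.6 CPM.

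Cystatins, inhibitors of papain-like proteases of which some also bind legumains, showed no called change. Of 7 loci 6 were tested in each comparison, none was called by edgeR or DESeq2 (1 had an unadjusted edgeR p under 0.05, in the globular library), and the median log2 fold changes were -0.01 in kyp, 0.18 in globular embryos and 0.22 in the seed coat. CYSB, whose exons overlap antisense genes over 72 and 21 bases and which is uncertain there, had 301 and 219 CPM in WT, 239 and 298 CPM in kyp, 154 CPM in the globular library and 271 CPM in the seed coat. AT4G16500 had 103 to 149 CPM and CYS1 71.3 to 102 CPM across the libraries. These 3 cystatins spanned a narrower range than DELTA-VPE, whose highest level was 13.1 times its lowest.

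The machinery that carries proteins to the vacuole showed no called change either. Of 19 sorting genes 15 were tested, with 7, 7 and 8 positive fold changes in kyp, globular and seed coat, and none called by edgeR or DESeq2 (1 had an unadjusted edgeR p under 0.05, in kyp). VSR1, a receptor for vacuolar cargo that overlaps an antisense gene over 100 exonic bases, had 131 to 172 CPM in the 6 libraries, and the retromer subunit VPS35A had 47.6 to 110 CPM. The retromer subunit MAG1, which overlaps antisense genes over 76 and 46 exonic bases, had 29.6 to 66.8 CPM, and reads in the overlaps of both VSR1 and MAG1 cannot be assigned.

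Metacaspases, cysteine proteases of another family with roles in plant cell death, were led by MC4 at 241 and 245 CPM in WT, 220 and 268 CPM in kyp, 126 CPM in the globular library and 224 CPM in the seed coat. MC1, which acts in defence-related cell death, had 10.7 CPM in the globular library and 23.3 to 34.6 CPM elsewhere. Of 9 loci, 3 to 5 were tested and none was called by edgeR or DESeq2 (unadjusted edgeR p under 0.05 for 1 in globular embryos and 1 in the seed coat). MC5 had 31 reads in the globular library and 1 in WT, but its exons overlap an antisense RNA over 1542 bases, so its level is uncertain.

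Stress and wounding markers were described because GAMMA-VPE and ALPHA-VPE are known from wounding and defence. Over all genes tested, edgeR called 0.384% higher and 0.774% lower in the globular library. Of the 12 stress markers tested there, 11 had negative fold changes (median log2 fold change -2.59 against -0.12 over all genes tested). Those called lower numbered 5: DREB2A, HSFA2, WRKY40, JAZ1 and OPR3. The count was 3 when thinned to equal depth. With no low-count filter it was 8, and 384 of all 23132 genes tested were then called lower. DREB2A, a dehydration-response regulator with 73 exonic bases opposite another gene, where reads are uncertain, had 355 and 413 CPM in WT and 27.9 CPM in the globular library (log2 fold change -3.78, edgeR adjusted p = 0.00222). HSFA2, a heat-shock regulator, had 510 and 325 CPM in WT and fell in globular embryos (54.6 CPM, log2 fold change -2.93, edgeR adjusted p = 0.0269). It also fell in the seed coat (25.1 CPM, log2 fold change -4.05, edgeR adjusted p = 0.00668). There it was the only one of the 12 that this fit called, and 0.627% of all genes tested were called lower. In the seed coat 3 were called lower by DESeq2, as were 395 of all 17706 genes. By edgeR 2 were called lower with no low-count filter (334 of all 23132 genes) or with the prefix as a block (244 of all 17706 genes). Thinned to equal depth, 2 were also called lower. The jasmonate genes JAZ1 and OPR3 fell in the globular library at an edgeR adjusted p of 0.0475 each, and WRKY40, which shares a run of 79 bases with another locus and is uncertain, had 2 reads against 391 in WT.

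In kyp, 10 of 11 tested stress markers had negative fold changes (median log2 fold change -1.03) and none was called by edgeR or DESeq2. Of the 11, 6 had an unadjusted edgeR p under 0.05, as had 815 of all 15996 genes tested. With no low-count filter 1 was called lower, as were 31 of all 22115 genes tested. The summed list was 2906 and 2560 CPM in WT, 1436 and 1505 CPM in kyp, 777 CPM in the globular library and 1580 CPM in the seed coat. This sum was highest in WT 7, where GAMMA-VPE was lowest, but the order of the libraries differed between single members of the list. Whether stress or wounding affected the GAMMA-VPE level was not tested.

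**Figure D4:**
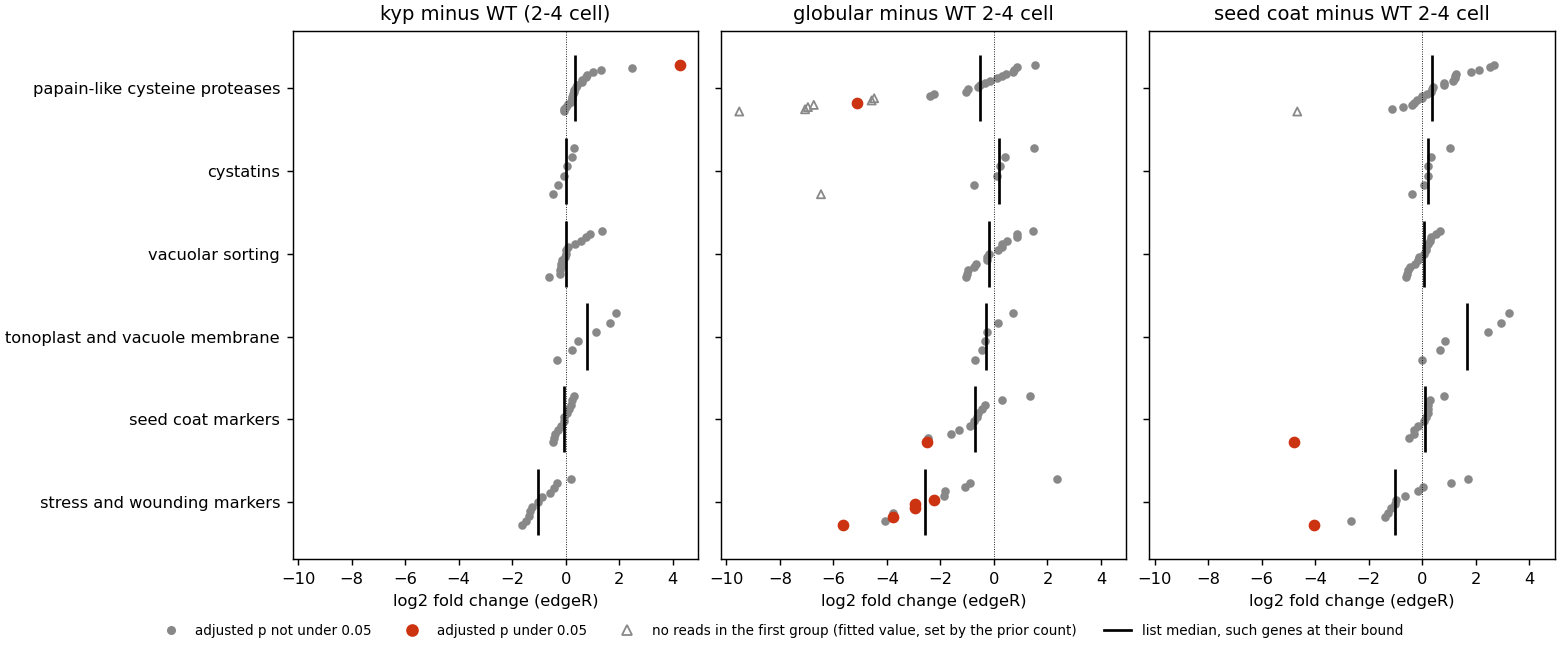
Fold changes of the tested members of 6 gene lists (x axis, log2 fold change from edgeR; each point a gene) for kyp, globular and seed coat against WT 2-4 cell embryos. Red points passed the adjusted p threshold of 0.05, open triangles are genes with no reads in the first group, whose fitted value is no bound, and black lines are list medians with such genes at their bound; the stress markers sit left of 0 in the globular library, with a median of -2.59.

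Genes whose levels followed each VPE most closely were listed by Pearson r of log2(CPM + 1) over the 6 libraries, among loci with a mean of at least 20 reads, as a description with no test. For DELTA-VPE they were AT1G47670 (r = 0.999), AT5G25510 (r = 0.994), AT5G65480 (r = 0.987), EXO70H8 (r = 0.985) and AT1G74070 (r = 0.983), and 28 of the 13201 loci exceeded 0.95. With 1 library far above the rest, such an r mostly reports a high globular level. For GAMMA-VPE they were ALA3 (r = 0.997), IBR3 (r = 0.995), SRF3 (r = 0.994), CHR8 (r = 0.989) and AT3G47000 (r = 0.987), and 58 loci exceeded 0.95. For BETA-VPE the list was PDS1, FH3, AT5G63300, HTR12 and VFB2, led by PDS1 at r = 0.983. For ALPHA-VPE it was AT4G38690, AT5G19120, LHCB4.3, PIP1C and AT4G28080, led by AT4G38690 at r = 0.983, and 9 reads set the pattern. Exons of some of these genes overlap genes on the opposite strand, over 3037 bases in AT4G28080, 329 in AT3G47000 and 231 and 75 in AT5G25510. The overlaps are 122 bases in PDS1, 118 and 45 in AT5G65480 and 114 in AT5G63300, with shorter ones in ALA3 and IBR3. AT3G47000 also shares a run of 53 bases with AT3G47010. Reads in these stretches are uncertain. All correlations share the same 6 libraries and their depths.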

How the data were processed

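Total RNA from dissected embryos or seed coat was linearly amplified (PicoPure, WT-Ovation Pico), sheared to 80 to 130 bp and sequenced on SOLiD, without molecular identifiers, per the labels' protocols. Per the file headers, the deposited tables give, for each transcript, full read counts, the summed coverage and the number of covered bases. Aligner, counter, build and annotation are not given in the sources used here. In WT 11 and kyp 12, 12.7% and 10.8% of the deposited estimated counts end in a fraction of 0.5 and were rounded up to whole reads. Of the transcripts, 37813 were in all libraries and 5 were left out; each of the 32140 loci was represented by its isoform with most reads.

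Counts were scaled by TMM and tested with edgeR 4.0.16 (quasi-likelihood, filterByExpr with a minimum count of 10, Benjamini-Hochberg adjusted p under 0.05 over all genes tested) in R 4.3.3. kyp was compared with WT in the 4 libraries of 2-4 cell embryos, and the globular and seed coat libraries with WT in a fit of all 6. At the filter, 3 of the 4 VPEs passed in each comparison (not ALPHA-VPE), which is no support for a difference. Levels at 0 reads were bounded at 3 reads per library. Poisson and binomial intervals are at 95% and cover counting error only. The scripts were tested on simulated counts in which 200 genes with levels above the median were changed by a set amount. All genes were given the same spread, and recovery for genes with fewer reads was not tested. Of changes of log2 2, the test recovered 15% in the kyp, 2% in the globular and 0% in the seed coat comparison. At log2 4 it recovered 91%, 39% and 41%. The lack of a call therefore does not show that a gene was unchanged. DESeq2 1.42.0 was an alternative, beside other scalings, filters, depths and left-out libraries. VPE and RefSeq coding sequences were aligned with MAFFT 7.526 and shared runs found with BLAST 2.17.0; listed lengths equal a RefSeq transcript's for 34.3% of loci, so no coordinates are given.

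The VPEs and the gene lists were chosen with earlier results of these data known. Named genes were, per list, those called in any comparison (at most 6, by p), or otherwise up to 3 with the highest mean level, plus the 5 loci most like each VPE; the genes said to be chosen later are named as such.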

Additional observations from a re-analysis of the deposited data

Results flagged for a closer look

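ALPHA-VPE was counted at 0 reads in kyp 12, yet the table of that library lists a summed coverage of 123 over 41 bases of the transcript. This column was used in no comparison, and the coverage lies above that of the WT libraries, where WT 11 lists 8.2 over 6.5 bases and WT 7 none. It does not amount to a full read in the authors' count, and its source was not tested.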

How the results depend on the processing

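Counts of called genes over all genes tested moved with the settings; the cause was not tested. For kyp against WT (3 higher, 2 lower), they were 33 and 17 with the DESeq2 Wald test, 75 and 31 with no low-count filter, 10 and 8 with the name prefix as a block, 10 and 4 with all 6 libraries in the fit, and 4 to 82 higher and 4 to 48 lower with 1 library left out. For the globular library (68 higher, 137 lower), 265 were lower with the Wald test, 178 higher and 384 lower with no filter, 245 lower with the block, and 97 to 159 higher and 220 to 337 lower with 1 library left out. For the seed coat (28 higher, 111 lower), there were 47 and 395 with the Wald test, 145 and 334 with no filter, 52 and 244 with the block, 13 and 72 with isoforms summed, 46 higher when thinned to equal depth, and 41 to 134 higher and 167 to 294 lower with 1 library left out. At an unadjusted edgeR p under 0.05, 465 and 350 genes were higher and lower in kyp, together 815 of the 15996 tested.

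The log2 ratio of GAMMA-VPE in the globular library over WT ranged from -1.11 without WT 7 to 1.17 without WT 11. That of BETA-VPE reached 4.59 in kyp over WT (1.39 to 4.59) and 4.89 in the globular library over WT (1.70 to 4.89) without WT 7. DELTA-VPE kept its direction in each setting, from 3.17 to 3.71 in globular embryos, 0.46 to 1.68 in kyp and 0.50 to 1.04 in the seed coat over WT with 1 library left out. GAMMA-VPE ranged from 0.74 to 3.01 in kyp and 0.84 to 3.11 in the seed coat over WT. For DELTA-VPE, scaling by gene totals in place of TMM shifted the log2 ratios to WT by 0.15 in kyp, 0.03 in globular embryos and 0.31 in the seed coat. Among named genes, calls were lost by JAZ1 (adjusted p = 0.0575 with isoforms summed, 0.0514 thinned) and OPR3 (0.0515 thinned, 0.0784 without WT 7), and gained by CEP1 in kyp without WT 11, by HSFA2 in kyp with no filter (adjusted p = 0.0454) or without kyp 12 (0.0166), and by DREB2A in the seed coat with the Wald test (0.0450). Of the other 979 values of named genes, 928 kept direction and side of the threshold. The remaining 51, over 26 results, changed sign without being called in either setting. With 1 library left out, the log2 fold changes in kyp ran as follows for APA1 (-0.016 to 0.22), CYP78A5 (-0.64 to 0.13), CYS1 (-0.26 to 0.11), CYSB (-0.16 to 0.30), MC1 (-0.36 to 0.14) and MC4 (-0.13 to 0.14). They also crossed 0 there for OPR3 (-0.73 to 0.21), PHE1 (-2.24 to 1.09), VPS35A (-0.88 to 0.32), VSR1 (-0.040 to 0.031), WOX2 (-0.29 to 0.60) and scpl48 (-1.03 to 0.040). In globular embryos they ran so for AT1G62290 (-0.17 to 0.83), AT4G04460 (-2.41 to 0.43), CEP1 (-1.89 to 1.62), CYS1 (-0.016 to 0.25), FWA (-0.79 to 0.21), VHA-A2 (-0.48 to 0.0058) and scpl48 (-0.67 to 0.40). In the seed coat they ran so for AT3G43960 (-0.049 to 0.98), CEP1 (-0.87 to 2.64), CYSB (-0.15 to 0.31), FWA (-0.40 to 0.60), MC1 (-0.16 to 0.30) and VHA-A3 (-0.045 to 0.045). Thinned to equal depth, values that changed sign were 0.074 for CYS1 in kyp and, in the seed coat, 0.030 for MC4, -0.30 for MC1, 0.13 for CEP1, 0.11 for VHA-A3 and -0.12 for FWA. With the prefix as a block they were -0.40 for PHE1 in kyp, -0.39 for AT1G62290 and -0.042 for CYS1 in globular embryos, and -0.17 for MC1, 0.74 for CEP1 and 0.058 for VHA-A3 in the seed coat. PHE1 in kyp was -0.011 with no filter and -0.0040 with all 6 libraries, and FWA in the seed coat was -0.013 with no filter, -0.019 with DESeq2 size factors and -0.017 with the Wald test. All 8 cell death markers tested had negative fold changes in globular embryos, but without WT 11 3 of 6 tested were positive and 1 negative.

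No paired analysis was possible because, by number, the groups share only library 11, and nothing in the labels ties libraries of the same number. The block used above is the name prefix, which is no replicate number. ALPHA-VPE, with 9 reads, and BETA-VPE, with 54, are limited by depth.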

Other observations

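The summed level of 8 tonoplast genes was highest in the seed coat, at 2117 CPM, against 972 to 1449.9 CPM in the embryo libraries. Of these 8 loci 6 were tested, 5 with positive and 1 with a negative fold change (median log2 fold change 1.67 against 0.00 over all genes tested). None was called by edgeR or DESeq2. An unadjusted edgeR p under 0.05 was found for 3 of the 6, and for 1686 of all 17706 genes tested. With no low-count filter 2 were called higher, as were 145 of all 23132 genes tested. The proton pump AVP1 had 1338 and 1001 CPM in WT, 963 and 916 CPM in kyp, 852 CPM in the globular library and 1837 CPM in the seed coat. The proton pump subunits VHA-A3 and VHA-A2 had 70.0 to 88.7 CPM and 18.3 to 39.9 CPM. GAMMA-TIP, a tonoplast water channel named after its values were seen, had 4.27 and 6.45 CPM in WT, 29.1 and 10.9 CPM in kyp, 8.91 CPM in the globular library and 52.4 CPM in the seed coat (log2 fold change 3.27 in the seed coat, edgeR adjusted p = 0.0779). In kyp the list had 5 of 6 positive fold changes (median log2 fold change 0.80, none called by edgeR or DESeq2, 1 with an unadjusted edgeR p under 0.05).

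AT1G08750, a peptidase of the same C13 family as the VPEs, had 28.6 and 27.2 CPM in WT and less elsewhere: 13.2 and 8.50 CPM in kyp, 8.31 CPM in the globular library and 11.2 CPM in the seed coat. It was called in no comparison by edgeR or DESeq2, and had no unadjusted edgeR p under 0.05 (0 of 3). The 10 endosperm markers summed to 70.0 and 61.4 CPM in WT, 117 and 63.7 CPM in kyp, 38.6 CPM in the globular library and 106 CPM in the seed coat, and none was called by edgeR or DESeq2 (2 of 7 tested in kyp had an unadjusted edgeR p under 0.05, and 0 in the other 2 comparisons). FWA had 15.4 to 32.4 CPM, MEA 0 to 19.2 CPM, and PHE1, which shares a run of 120 bases with its copy PHE2, 3.89 to 40.3 CPM. The part of endosperm RNA in the VPE levels was not tested.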
